A study of Callithrix jacchus with 20 samples.

Results

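TESR pre-ME + ActA were compared with TESR cjiPSCs, the kind of cell they were made from, using 2 RNA-seq libraries of each, 4 of the 20 libraries of the study. Members were the columns of raw counts whose sample titles name these 2 conditions. The study follows a common marmoset line, DPZ_cjiPSC2, from induced pluripotent stem cells (cjiPSCs) through precursors of mesendoderm (pre-ME) to cells that resemble primordial germ cells. It asks how the medium in which the cjiPSCs are kept and the presence of Activin A (ActA) during the pre-ME step change the cells. The labels give this 1 line for all 20 libraries. The cjiPSCs were kept on Geltrex in TESR medium, which is TeSR-E8. For pre-ME, confluent cjiPSCs were trypsinised, and 200000 cells per well were seeded on vitronectin in Advanced RPMI with B-27. For 24 h this medium held 100 ng/ml ActA, 3 µM of the GSK3 inhibitor CHIR and 10 µM of the ROCK inhibitor Y-27632. ActA, CHIR, the ROCK inhibitor, the change of basal medium and coating, and replating therefore all separate the groups and cannot be told apart in this comparison. The TESR pre-ME libraries also have sample numbers apart from those of all other libraries. Whether they were prepared or sequenced at another time is not given in the sources used here. Such a difference could not be told apart either. Libraries of TESR pre-ME made without ActA are set beside some values, since they had CHIR and the other steps as well. The labels describe the libraries of a group as biological replicates without saying how the cultures were separated, so p-values measure the spread between libraries only. That spread was estimated over all 20 libraries of the study, not over the 4 compared alone.

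Inhibition of GSK3 stabilises β-catenin, which turns on WNT target genes, and many of these encode inhibitors that feed back on the pathway. ActA binds the same type of receptor as NODAL and signals through SMAD2 and SMAD3. In the primate embryo WNT and NODAL signals together induce the primitive streak, where epiblast cells begin to form mesoderm and endoderm, and these signals are also used to prepare cultured pluripotent cells for mesendoderm or germ cell fates.

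The pre-ME + ActA cells had much higher levels of WNT feedback genes, led by the secreted WNT inhibitor NOTUM. They also had higher levels of NODAL, of the streak genes MIXL1 and FGF8, of the caudal genes CDX1 and CDX2, and of genes of the HOXA cluster. Levels of POU5F1 and SOX2 did not pass the test, and NANOG was somewhat higher. CDH1, the gene of the epithelial cadherin, fell by 5.56 on the log2 scale. Genes of cholesterol synthesis were almost all lower, most of them by less than the threshold of fold change used here.

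Between 8590205 and 20718379 reads were counted on genes in the 4 libraries, and the second cjiPSC library was the shallowest of them. At these depths 3 counts stand for 0.145 to 0.349 CPM, the count scaled to the total of the library, and such floors cover counting error only. Over all tested genes, the log2 difference between the 2 replicates had an SD of 0.619 in the cjiPSCs and 0.335 in pre-ME + ActA. Counted reads that fell outside annotated genes made up 10.6% and 13.3% in the cjiPSCs and 19.5% and 19.3% in pre-ME + ActA, so the groups did not overlap. Of the other libraries, the cjPSCM cjiPSCs stood apart, with 12.2% in replicate 1 and 19.3% in replicate 2 and an SD between replicates of 0.959. They enter the model through its shared estimate of the spread and the comparison of media below. When the share of reads outside genes was added as a covariate, calls were lost. This is stated beside each gene named here that it touches, among those chosen by the rule given below. For genes chosen outside that rule this fit was not read gene by gene, so nothing is stated beside them. As a check of the labels, the pluripotency genes LIN28A, SALL4 and DNMT3B had at least 656 normalised counts in each of the 4 libraries. TDGF1, another marker of pluripotent cells, stayed between 2.75 and 6.02, and the streak marker GSC between 0.551 and 15.9, and neither was tested.

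The tests were those of edgeR (quasi-likelihood, raw counts of all 20 libraries), with Benjamini-Hochberg adjustment over the genes tested. A gene is called up- or down-regulated here when its adjusted p was below 0.05 and its log2 fold change lay beyond 2 in either direction. Normalised counts are counts divided by a size factor of the library and are not corrected for gene length, so they compare libraries and not genes. Of 15797 genes tested, 701 (4.44%) were up-regulated and 399 (2.53%) were down-regulated, 1100 (6.96%) in all, and these shares are the background for the counts of each list. With the adjusted p alone, 2739 genes (17.3%) were higher and 2707 (17.1%) lower, and the median log2 fold change of all tested genes was -0.02. The replicates of the groups did not overlap for 701 of 701 up-regulated and 395 of 399 down-regulated genes, against 10422 (66%) of all genes tested. In 205 of the up-regulated and 64 of the down-regulated genes, the lower group had 3 counts or fewer in both libraries, so that only a lower bound of the fold can be given.

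**Figure D1:**
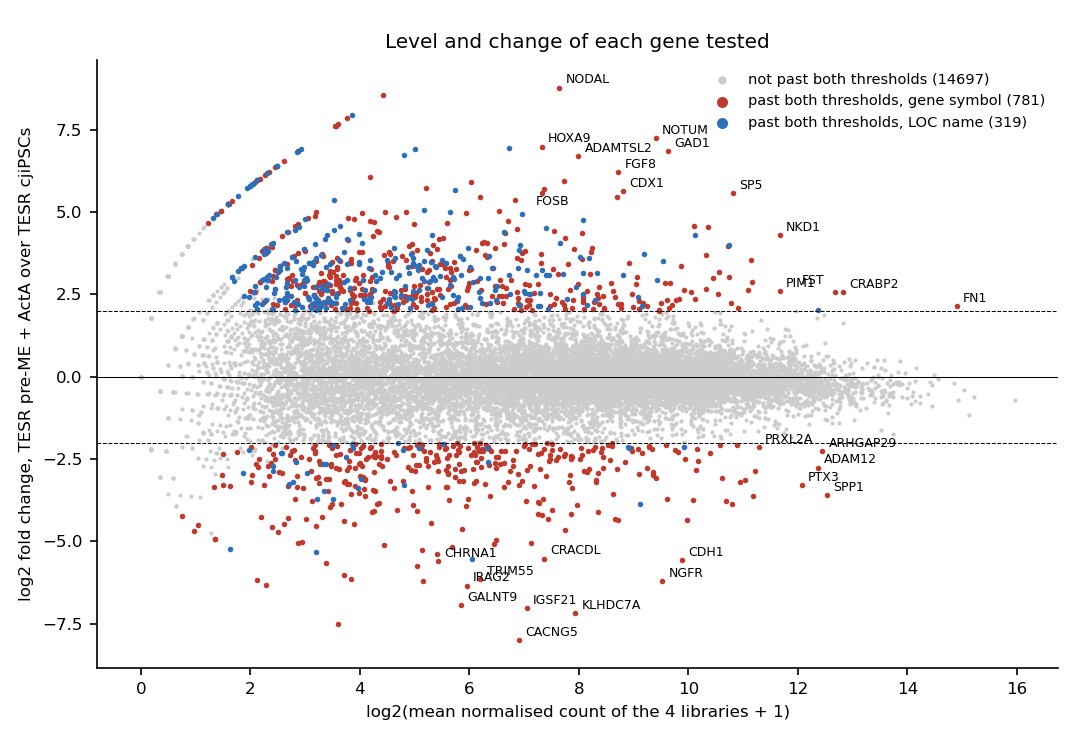
Each point is 1 of the 15797 genes tested, placed by log2 of its mean normalised count over the 4 libraries plus 1 (horizontal) and by its log2 fold change of TESR pre-ME + ActA over TESR cjiPSCs (vertical). The 1100 genes past both thresholds are red with a gene symbol and blue with a LOC name, dashed lines mark a log2 fold change of 2 in either direction, and the LOC names lie mostly on the higher side, with 284 above and 35 below.

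The WNT feedback list held 23 tested genes, of which 10 were up-regulated and none down-regulated, with a median log2 fold change of 1.76. By the adjusted p alone 13 were higher and 5 lower. AXIN2, a scaffold of the complex that degrades β-catenin and a general WNT target, had 159.8 and 214 normalised counts in the cjiPSCs, and pre-ME + ActA had 2383 and 2366. Its log2 fold change was 3.70 (SE 0.15, adjusted p = 1.77e-10). Both pre-ME libraries lay far above both cjiPSC libraries. Pre-ME without ActA had 2480.3 and 2554, and the difference made by ActA was -0.09 on the log2 scale (adjusted p = 0.828).

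NOTUM, an enzyme that inactivates WNT proteins outside the cell, had the largest change of the list, from 9.36 and 7.45 to 1151 and 1544 normalised counts (log2 fold change 7.25, SE 0.26, adjusted p = 3.29e-11). SP5, a transcription factor induced directly by β-catenin, rose from 64.5 and 89.3 to 3195 and 3828 (log2 fold change 5.57, adjusted p = 3.6e-10). NKD1, an inhibitor of Dishevelled, rose from 279 and 356 to 5403 and 6988 (log2 fold change 4.31, adjusted p = 1.39e-06). These 3 genes were low in both cjiPSC libraries and high in both pre-ME + ActA libraries. LEF1, a DNA-binding partner of β-catenin, rose from 100.3 and 118 to 2204 and 2800.2 (log2 fold change 4.55, adjusted p = 3.37e-08), and its relative TCF7 rose from 30.8 and 56.6 to 185 and 198 (log2 fold change 2.23). The receptor antagonist DKK1 rose from 281 and 107 to 2921 and 3484, with a log2 fold change of 3.98 (adjusted p = 4.75e-07).

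Not all WNT regulators followed. ZNRF3, a ubiquitin ligase that removes WNT receptors, had a log2 fold change of 1.76 (adjusted p = 6.66e-07), under the threshold of fold change, while its relative RNF43 rose from 6.61 and 11.9 to 158 and 130.0 normalised counts (log2 fold change 4.10). The WNT-binding protein SFRP1 was lower, at 5634 and 5906 against 18436 and 17118 in the cjiPSCs (log2 fold change -1.61, adjusted p = 0.00724). LGR5, a receptor for R-spondins, had 374 and 303 against 496 and 252 (log2 fold change -0.16, adjusted p = 0.703). Against pre-ME without ActA, where 226 genes (1.43%) were higher and 90 (0.57%) lower with ActA past both thresholds, this was so for no gene of the WNT list. LEF1 and DKK1 were higher with ActA by 1.10 (adjusted p = 0.0106) and 1.59 (adjusted p = 0.00228) on the log2 scale, and RNF43 was lower by a log2 difference of -1.44 (adjusted p = 0.0103).

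**Figure D2:**
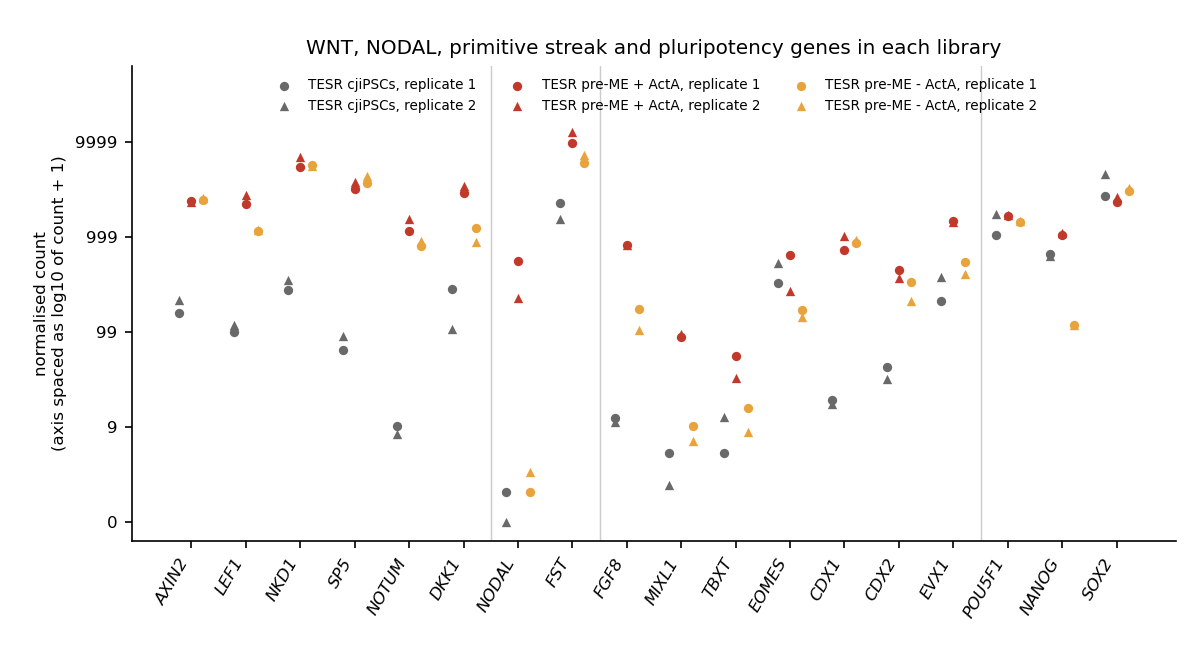
Normalised counts on a logarithmic axis (count plus 1) of genes of the WNT, NODAL, primitive streak and pluripotency lists, with 1 point per library for TESR cjiPSCs (grey), TESR pre-ME + ActA (red) and TESR pre-ME - ActA (yellow), circles for replicate 1 and triangles for replicate 2. AXIN2, NKD1, SP5 and CDX1 stood at similar heights in both kinds of pre-ME, whereas NODAL, MIXL1 and NANOG lay higher in pre-ME + ActA than in pre-ME - ActA.

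In the list of the NODAL and Activin pathway, 3 of 22 tested genes were up-regulated and 1 was down-regulated, and the median log2 fold change was -0.02, the same as that of all genes. By the adjusted p alone 7 were higher and 2 lower. NODAL, the ligand itself, had 1.10 and 0 normalised counts in the cjiPSCs and 564 and 228 in pre-ME + ActA. It was at least 131-fold higher, computed against a floor of 3 counts per library (adjusted p = 3.64e-06). With 1.10 and 2.34 normalised counts in pre-ME without ActA, NODAL was at the level of the cjiPSCs there. Its call was lost with the share of reads outside genes as a covariate (log2 fold change 4.19, adjusted p = 0.614).

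SMAD7, an inhibitor that SMAD signalling induces, had 188 and 234 in the cjiPSCs, 715 and 771 in pre-ME + ActA and 161 and 124 in pre-ME without ActA. Its log2 fold change over the cjiPSCs was 1.85 (adjusted p = 7.94e-06) and over pre-ME without ActA 2.38 (adjusted p = 1.97e-06).

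FST, which encodes the Activin-binding protein follistatin, rose from 2265 and 1532 to 9754 and 12714 normalised counts (log2 fold change 2.57, adjusted p = 0.000118), and with the covariate its log2 fold change was 1.59 (adjusted p = 0.0512). INHBA, which encodes the subunit of ActA itself, fell from 68.3 and 98.3 to 21.3 and 16.5 (log2 fold change -2.10, adjusted p = 0.00103). That call lay close to the fold change threshold: the value was -1.98 with total counts in place of TMM scaling, -1.86 without cjiPSC replicate 2, -1.92 without pre-ME + ActA replicate 2, and -1.23 (adjusted p = 0.169) with the covariate. FOXH1, the DNA-binding partner of SMAD2, had 267 and 345 against 299 and 246 (log2 fold change -0.14, adjusted p = 0.491). LEFTY1, LEFTY2 and CFC1 were not analysed here.

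The primitive streak list had 12 up-regulated and 0 down-regulated genes among 23 tested, with a median log2 fold change of 2.34, or 1.75 when 2 genes are set to their lower bound. FGF8, a signal of the streak, rose from 11.6 and 10.4 to 825 and 832 normalised counts (log2 fold change 6.20, SE 0.38, adjusted p = 1.33e-08). It had 173 and 105 in pre-ME without ActA and was thus higher with ActA by 2.58 on the log2 scale (adjusted p = 1.46e-05). MIXL1, a homeobox factor of mesendoderm, rose from 4.41 and 1.49 to 87.6 and 95.5 (log2 fold change 4.67, SE 0.46, adjusted p = 1.97e-06), against 9.33 and 6.08 without ActA. EVX1, a homeobox gene of the posterior streak, rose from 210.4 and 379.7 to 1466 and 1426 (log2 fold change 2.34, adjusted p = 0.000817).

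TBXT, which encodes Brachyury, rose less. It had 4.41 and 11.9 normalised counts in the cjiPSCs and 55.3 and 31.8 in pre-ME + ActA (log2 fold change 2.64, SE 0.54, adjusted p = 0.00222). The groups did not overlap, but the log2 fold change was 1.89 (adjusted p = 0.0468) without cjiPSC replicate 1 and 0.56 (adjusted p = 0.946) with the covariate. EOMES, a T-box factor needed for endoderm, had 329 and 536 in the cjiPSCs and 641 and 267 in pre-ME + ActA, so the groups overlapped (log2 fold change 0.10, adjusted p = 0.859). Compared with pre-ME without ActA, where EOMES had 169 and 142, it was higher by 1.55 (adjusted p = 0.00874). The summed level of the streak list was 2280 and 3032 in the cjiPSCs, 11296 and 11359 in pre-ME + ActA and 9216 and 9843 without ActA. SP5, which is also in the WNT list, made up 64.5 and 89.3, 3195 and 3828, and 3672 and 4380 of these sums.

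The caudal genes rose strongly, and pre-ME without ActA had levels of the same order. CDX1 had 18.2 and 16.4 normalised counts in the cjiPSCs and 727 and 1028 in pre-ME + ActA (log2 fold change 5.64, SE 0.30, adjusted p = 2.49e-09), beside 860.2 and 937 without ActA. CDX2 rose from 42.4 and 31.3 to 445 and 373 (log2 fold change 3.43, adjusted p = 1.97e-06), beside 336 and 213. NKX1-2, a marker of the caudal epiblast, rose from 191 and 136 to 1447 and 1956 (log2 fold change 3.36, adjusted p = 8.57e-05), beside 1553 and 1865. For these 3 genes the differences made by ActA were -0.04, 0.58 and -0.01 on the log2 scale, with adjusted p of 0.97, 0.285 and 0.998.

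HOX genes, which give cells their position along the body axis, were the list with the highest median log2 fold change, 2.89, or 2.56 with 8 genes at their lower bound. Of 20 genes tested 14 were up-regulated and 0 down-regulated. All 8 tested genes of the HOXA cluster were up-regulated, against 1 of 5 in HOXB, 2 of 3 in HOXC and 3 of 4 in HOXD. Summed over a cluster, HOXA counts rose from 72.7 and 70.0 to 1328 and 1247, HOXB from 54.0 and 49.1 to 98.5 and 89.2, HOXC from 18.2 and 17.9 to 75.0 and 55.7, and HOXD from 7.71 and 10.4 to 89.8 and 98.7. The groups did not overlap in any cluster.

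Both named genes of the HOXA cluster, HOXA9 and HOXA10, lie towards its 5′ end and were low without ActA. HOXA9 had 2.75 and 1.49 normalised counts in the cjiPSCs, 329 and 302 in pre-ME + ActA and 9.88 and 13.1 in pre-ME without ActA, and HOXA10 had 3.31 and 4.47, 124 and 110.4, and 4.94 and 8.89 in these groups. Without ActA both genes had at most 13.1, far below pre-ME + ActA. The log2 fold changes over the cjiPSCs were 6.98 for HOXA9 (adjusted p = 1.33e-08) and 4.96 for HOXA10 (adjusted p = 3.43e-06). The differences made by ActA were 4.76 (adjusted p = 2.72e-07) and 4.04 (adjusted p = 1.21e-05). With the covariate HOXA9 kept a log2 fold change of 7.55, and the count of up-regulated HOX genes went from 14 to 4. Neighbouring HOX genes lie close together and have antisense transcripts, and the strand setting of the counting is not given in the sources used here, so reads of neighbours may be mixed.

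Core pluripotency genes moved in both directions, with 1 of 22 tested genes up-regulated and 1 down-regulated, and by the adjusted p alone 6 were higher and 6 lower (median log2 fold change -0.18). Their summed level was lower, at 38261 and 36383 normalised counts in pre-ME + ActA against 49312 and 54937 in the cjiPSCs, without overlap, and was 45314 and 45902 without ActA. POU5F1, which encodes OCT4, had 1049 and 1765 normalised counts in the cjiPSCs and 1647 and 1706 in pre-ME + ActA (log2 fold change 0.28, SE 0.17, adjusted p = 0.216). SOX2 had 2708 and 4610.1 against 2318 and 2633 (log2 fold change -0.55, SE 0.25, adjusted p = 0.0982). The groups overlapped for POU5F1, and both pre-ME values of SOX2 were below the cjiPSC values. NANOG was higher in both pre-ME + ActA libraries, at 1052 and 1106 against 669 and 633 (log2 fold change 0.74, SE 0.26, adjusted p = 0.037), and it had only 117 and 119 in pre-ME without ActA, a difference of 3.19 (adjusted p = 2.05e-06). OTX2, a homeobox gene of the epiblast, rose from 3.86 and 5.96 to 115 and 31.8 (log2 fold change 4.00, adjusted p = 0.000425). UTF1, a chromatin protein of pluripotent cells, fell from 72.2 and 168 to 25.7 and 22.8 (log2 fold change -2.24, adjusted p = 0.000889), with -1.58 without cjiPSC replicate 2 and -1.59 (adjusted p = 0.0777) with the covariate.

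Of the FGF list, ligands were among the up-regulated genes, and feedback genes that ERK signalling induces were among the lower ones. Of 28 genes tested 4 were up-regulated, all ligands, and 0 were down-regulated, but by the adjusted p alone 8 were higher and 12 lower (median log2 fold change -0.19). Besides FGF8, described with the streak genes, FGF18 rose from 4.41 and 7.45 to 134 and 226 normalised counts (log2 fold change 5.04, adjusted p = 1.87e-06), and it stayed at 4.94 and 4.68 without ActA. With the covariate FGF18 had 3.55 (adjusted p = 0.0714). FGF17 was not detected in the cjiPSCs and had 7.11 and 13.3 in pre-ME + ActA, at least 3.37-fold higher, and its call was lost with the covariate (adjusted p = 0.947). FGF3 was likewise at 0 in both cjiPSC libraries and reached 2.19 and 4.78 in pre-ME + ActA, at least 1.15-fold higher, but it had 123 and 169 in pre-ME without ActA (log2 difference made by ActA -5.34, adjusted p = 4.86e-06). DUSP6, a phosphatase that ERK induces and that inactivates ERK, had 9708 and 8571 in the cjiPSCs, 3134 and 3791 in pre-ME + ActA and 924 and 855 without ActA (log2 fold change over the cjiPSCs -1.39, adjusted p = 7.65e-06). SPRY4, another feedback inhibitor, had 5402 and 5043, 2786 and 2803, and 418 and 322 (log2 fold change -0.89, adjusted p = 0.00173). Both were lower than in the cjiPSCs and higher than in pre-ME without ActA, by 1.96 (adjusted p = 9.8e-07) and 2.92 (adjusted p = 2.85e-07).

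In the BMP pathway 3 of 25 genes were up-regulated, 0 were down-regulated and the median log2 fold change was 0.41. Apart from FST these were the homeobox genes MSX1 and DLX5, which BMP and WNT signals can induce. MSX1 rose from 14.3 and 26.8 to 897 and 719 normalised counts (log2 fold change 5.46, adjusted p = 6.82e-09) and had 855 and 633 without ActA. DLX5 rose from 3.86 and 1.49 to 17.5 and 23.4 (log2 fold change 2.65, adjusted p = 0.00145). The ID genes, direct targets of BMP, did not move together. ID1 had 1296 and 1511 against 1528 and 1144 (log2 fold change -0.06, adjusted p = 0.882), ID2 was higher by 0.77 (adjusted p = 0.00537) and ID3 was lower, with 4487 and 4512 against 1807 and 1560.4 (log2 fold change -1.41, adjusted p = 6.85e-05).

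Endoderm genes were mostly without a call, with 1 of 16 tested genes up-regulated, 1 down-regulated and a median log2 fold change of 0.20. CXCR4, a chemokine receptor of definitive endoderm that other cells use as well, rose from 14.9 and 20.8 to 169.7 and 287 normalised counts (log2 fold change 3.76, SE 0.33, adjusted p = 7.24e-07), and it had 294 and 482 without ActA. SOX17, a factor of endoderm and of primate germ cells, had 93.1 and 169.8 against 184 and 73.2 (log2 fold change 0.04, adjusted p = 0.959), so the groups overlapped. GATA6, a factor of early endoderm, was higher, at 582 and 337 against 136 and 182 (log2 fold change 1.57, adjusted p = 0.000533), and had 132 and 82.8 without ActA. FOXA2 reached 3.28 and 2.65 from 0 and 1.49 (adjusted p = 0.14). HNF4A, a factor of visceral endoderm and liver, was at 1.09 and 0 in pre-ME + ActA and 17.6 and 2.98 in the cjiPSCs, at least 6.83-fold lower (adjusted p = 0.0115). Its call was lost without cjiPSC replicate 1 (adjusted p = 0.5), without pre-ME + ActA replicate 2 (adjusted p = 0.0872) and with the covariate (adjusted p = 0.399).

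Among mesoderm genes 4 of 26 were up-regulated and 3 down-regulated (median log2 fold change 0.12). Their summed level was 11213 and 10014 normalised counts in the cjiPSCs and 6458 and 6716 in pre-ME + ActA, without overlap. In pre-ME without ActA it was 3418 and 3368. HAND1, a basic helix-loop-helix factor of lateral and extraembryonic mesoderm, rose from 9.92 and 10.4 to 111 and 55.2 normalised counts (log2 fold change 3.03, adjusted p = 2.2e-05), and it had 14.8 and 10.3 without ActA. TWIST1, a regulator of mesenchyme, rose from 12.7 and 28.3 to 67.3 and 99.3 (log2 fold change 2.24, adjusted p = 0.000377), which became 1.59 without cjiPSC replicate 1 and 1.93 without pre-ME + ActA replicate 2. Some genes of presomitic and later mesoderm were low in both groups. TBX6 had 2.75 and 2.98 against 8.21 and 4.78 (adjusted p = 0.213), and MESP1 had 7.71 and 2.98 against 8.76 and 4.25 (adjusted p = 0.941). MSGN1 and FOXF1 were too low to be tested. The groups overlapped for PDGFRA, with 81.5 and 68.5 against 146 and 79.6 (log2 fold change 0.56, adjusted p = 0.173). Of this list PAX3 was also up-regulated and ISL1 was higher, and both are described with other lists. The genes MEOX1 and MEOX2, which act in somites, fell. MEOX2 went from 33.6 and 47.6 to 4.93 and 3.72 (log2 fold change -3.16, adjusted p = 0.000249), and MEOX1 from 11.02 and 16.4 to 0.547 and 0.531, at least 8.39-fold lower. With the covariate the adjusted p was 0.0582 for MEOX2 and 0.109 for MEOX1. FOXC2 (adjusted p = 0.0452) lost its call when any 1 of the 4 libraries was left out, with log2 fold changes from -2.65 to -1.82 and adjusted p from 0.0577 to 0.201, and with the covariate its log2 fold change was -0.06 (adjusted p = 0.975).

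Neural genes had 3 up-regulated and 2 down-regulated members among 20 tested (median log2 fold change -0.35, or -0.55 with 4 genes at their bound). ZIC1, a zinc finger factor of dorsal neural tissue and mesoderm, rose from 1.10 and 1.49 to 48.2 and 92.4 normalised counts and was at least 23.3-fold higher (adjusted p = 4.13e-06), beside 113 and 152 without ActA. POU3F2, a POU factor of neural progenitors, rose from 43.0 and 41.7 to 211 and 283 (log2 fold change 2.54, adjusted p = 2.18e-06). OLIG3, a factor of dorsal progenitors, fell from 295 and 274 to 17.5 and 22.8 (log2 fold change -3.80, adjusted p = 0.00346), and NKX2-2, of ventral progenitors, fell from 272 and 326 to 62.4 and 43.0 (log2 fold change -2.49, adjusted p = 2.95e-05). The early neural genes SOX1 and HES5 were too low to be tested. SOX3, an early neural and epiblast gene, was lower, at 73.3 and 123 against 201 and 261 (log2 fold change -1.21, adjusted p = 0.0203). ZIC4 was at 0 in both cjiPSC libraries and at 2.74 and 5.31 in pre-ME + ActA, and it lost its call when either cjiPSC library (adjusted p = 0.161 and 0.0514) or pre-ME + ActA replicate 2 (adjusted p = 0.097) was left out.

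Genes of amnion and surface ectoderm had 2 up-regulated members, MSX1 and DLX5, and 2 down-regulated members among 18 tested (median log2 fold change 0.39). TFAP2B fell from 454 and 541 to 44.9 and 87.0 normalised counts (log2 fold change -2.90, adjusted p = 0.000188), which was -1.56 (adjusted p = 0.103) with the covariate. HEY1, a NOTCH target, fell from 2157 and 1608 to 405 and 419 (log2 fold change -2.19, adjusted p = 3.01e-08), with -1.93 without cjiPSC replicate 1. TFAP2A had 18.2 and 17.9 against 14.2 and 17.5 (adjusted p = 0.835) and GATA3 had 461 and 949 against 808 and 566 (adjusted p = 1). ISL1, a LIM homeobox gene, was higher at 934 and 918 against 379 and 395 (log2 fold change 1.27, adjusted p = 4.09e-05).

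CDH1 had 1710.5 and 2012 normalised counts in the cjiPSCs and 38.3 and 39.8 in pre-ME + ActA (log2 fold change -5.56, SE 0.24, adjusted p = 4.67e-10), and 34.0 and 42.6 without ActA. Both pre-ME libraries lay far below both cjiPSC libraries, and the log2 fold change was -6.39 with the covariate. CDH2, the neural cadherin that often replaces it, had 4220.2 and 3919 against 4855 and 5385 (log2 fold change 0.34, adjusted p = 0.128). EPCAM, an epithelial adhesion protein, had 553 and 682 against 729 and 546 (log2 fold change 0.06, adjusted p = 0.906), and the transcription factor SNAI1, a repressor of CDH1, had 138 and 141 against 108 and 81.7 (log2 fold change -0.55, adjusted p = 0.101). VIM, the mesenchymal intermediate filament, was lower, at 22832 and 21376 against 37929 and 61659.5 (log2 fold change -1.16, adjusted p = 0.000908). Of 27 genes of the epithelium and mesenchyme list 3 were up-regulated and 1, CDH1, was down-regulated (median log2 fold change 0.33), and 7 were higher and 6 lower by the adjusted p alone. FN1, which encodes fibronectin and carried the most reads of the up-regulated genes, rose from 11083 and 11613 to 49183 and 51148 (log2 fold change 2.16, adjusted p = 5.95e-06), and it had 9418 and 10774 without ActA. ESRP2, a splicing factor of epithelia, rose from 15.4 and 20.8 to 96.3 and 63.2 (log2 fold change 2.19), but its log2 fold change was 1.96 without cjiPSC replicate 1, 1.86 without pre-ME + ActA replicate 1 and 1.10 (adjusted p = 0.302) with the covariate.

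Genes of cholesterol synthesis were lower almost without exception: by the adjusted p alone 26 of 28 were lower and 0 higher, against 17.1% lower among all genes, with a median log2 fold change of -0.92. Their summed level was 116394 and 144152 normalised counts in the cjiPSCs and 66922 and 70766 in pre-ME + ActA, without overlap, and 65741 and 69959 in pre-ME without ActA. HMGCS1, at the start of the pathway, had 9306 and 8383 against 3527 and 4015 (log2 fold change -1.22, adjusted p = 1.24e-05). SQLE, which oxidises squalene, had 5065 and 6503 against 2978 and 3373 (log2 fold change -0.85, adjusted p = 7.91e-05). TM7SF2, a sterol reductase, was the 1 gene past both thresholds (log2 fold change -2.44, adjusted p = 1.8e-05), which became -1.85 without cjiPSC replicate 2.

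Other lists of metabolism and stress moved less. Of 31 genes of glycolysis and the hypoxia response none was up- or down-regulated, and 8 were higher and 6 lower by the adjusted p alone (median log2 fold change 0.22). SLC2A1, the main glucose transporter, was higher by 0.61 (adjusted p = 0.00223). In the integrated stress response 2 of 26 genes, ATF3 and TRIB3, were up-regulated, and 11 were higher and 2 lower by the adjusted p alone (median log2 fold change 0.21). DDIT3, which encodes CHOP, had 128 and 124 normalised counts against 40.2 and 61.1 (log2 fold change 1.38, adjusted p = 0.000876), and ASNS, which makes asparagine, was higher by 0.61 (adjusted p = 0.00185). ATF3 rose from 30.8 and 37.2 to 231 and 165 (log2 fold change 2.57, adjusted p = 4.11e-05), and TRIB3 from 10.5 and 22.3 to 72.2 and 54.1 (log2 fold change 2.10), which was 1.53 without cjiPSC replicate 1 and 1.87 without pre-ME + ActA replicate 1. No gene of 21 in the p53 list was past both thresholds (median log2 fold change -0.06), and CDKN1A, which encodes the cell cycle inhibitor p21, was lower, at 159 and 128 against 446 and 673 (log2 fold change -1.93, adjusted p = 0.00017), passing the fold threshold at -2.19 without cjiPSC replicate 1 and -2.09 without pre-ME + ActA replicate 1.

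Immediate early genes had 5 up-regulated members and 1 down-regulated member among 21 (median log2 fold change 0.35). FOSB rose from 5.51 and 7.45 to 429.6 and 215 normalised counts (log2 fold change 5.71, adjusted p = 4.24e-05), beside 496 and 234 without ActA. FOS rose from 54.0 and 80.4 to 314 and 255 (log2 fold change 2.15), with 1.85 without cjiPSC replicate 1 and 1.99 without pre-ME + ActA replicate 1. FOSL2 rose from 116 and 225 to 698 and 693 (log2 fold change 2.10, adjusted p = 2.29e-05) and IER3 from 41.9 and 46.2 to 246 and 143 (log2 fold change 2.17), which was 1.72 without pre-ME + ActA replicate 1. KLF2, a zinc finger factor, fell from 157 and 261 to 29.0 and 23.4 (log2 fold change -2.95, adjusted p = 5.84e-06), whereas EGR1 had 977 and 1456 against 963 and 1123 (adjusted p = 0.747). None of 26 targets of SRF and YAP was past both thresholds, 9 were higher and 4 lower by the adjusted p alone, and the median was 0.36. CCN1, a matrix protein that YAP induces, had 1267 and 1976 against 6520.1 and 6194. Its log2 fold change was 1.99 (adjusted p = 7.68e-06), just under the threshold. It was 2.32 without cjiPSC replicate 2 and 2.03 without pre-ME + ActA replicate 2. ACTA2 was higher by 1.00 (adjusted p = 0.000425). The groups overlapped for CCN2, with 79.3 and 121 against 79.4 and 83.3 (adjusted p = 0.64). They also overlapped for ANKRD1, with 989 and 3292 against 3301 and 2959 (adjusted p = 0.296).

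Among G1 cell cycle genes 1 of 23, CDKN2B, was up-regulated (median log2 fold change -0.10). CDKN2B, an inhibitor of CDK4 and CDK6 that TGFβ signals induce, rose from 26.4 and 47.6 to 319 and 339.7 normalised counts (log2 fold change 3.26, SE 0.34, adjusted p = 3.51e-06). In pre-ME without ActA it had 22.5 and 13.6, below both other groups, and the difference made by ActA was 4.20 (adjusted p = 9.8e-07). CCND1, the cyclin D gene that WNT signals can induce, was higher by 1.80 (adjusted p = 2.35e-05), with 1574 and 3181 against 8101 and 8160.3, and by 2.36 without cjiPSC replicate 2. MYC had 1080.3 and 2814 against 1311 and 1241, so the groups overlapped (log2 fold change -0.58, adjusted p = 0.11).

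Markers of other cell types that a culture could hold were counted as well. Of 13 fibroblast markers none was up- or down-regulated, and their summed level was 17574 and 19938 normalised counts in the cjiPSCs and 10594 and 9984 in pre-ME + ActA. Neural crest markers had 1 up-regulated and 3 down-regulated genes among 11 (median log2 fold change -0.31), and their summed level went from 3543 and 4631 to 1903 and 1957. NGFR, a neurotrophin receptor of neural crest, fell from 1046 and 1849 to 19.2 and 19.6 (log2 fold change -6.19, SE 0.35, adjusted p = 5.34e-09), and SOX8 fell from 199.97 and 214 to 40.5 and 58.9 (log2 fold change -2.04, or -1.80 without pre-ME + ActA replicate 1 and with its call also lost under total counts). SOX10, which defines the crest, had 11.6 and 16.4 against 16.4 and 15.4 (adjusted p = 0.667). PAX3, a factor of crest and dorsal somites, rose from 3.31 and 8.93 to 67.3 and 71.7 (log2 fold change 3.76, adjusted p = 7.11e-05) and lost its call with the covariate (adjusted p = 0.0985). Of the trophoblast markers 4 could be tested, with HAND1 higher and PGF, a placental growth factor, lower, at 108 and 66.3 against 533 and 680.5 (log2 fold change -2.78, adjusted p = 1.01e-06). CGA, a hormone subunit of trophoblast, had no more than 0.551. The part of such cells in these results was not tested, and in bulk RNA fewer cells of a type and less RNA per cell cannot be told apart.

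Germ cell genes had 3 up-regulated and 2 down-regulated members among 12 tested (median log2 fold change 0.79, or 0.53 with 1 gene at its bound). TFAP2C, a factor of early germ cells and amnion, was higher, at 32.8 and 20.7 normalised counts against 7.16 and 10.4 (log2 fold change 1.69, adjusted p = 0.0336), and PRDM1, which encodes BLIMP1, was lower, at 445 and 315 against 1025 and 1030.4 (log2 fold change -1.42, adjusted p = 9.28e-05). NANOS3 had 3.86 and 0 against 6.02 and 3.72 (adjusted p = 0.465), and DDX4, of later germ cells, was at 0 in all 4 libraries. The up-regulated genes were low in both groups: KLF4 had 3.31 and 11.9 against 23.5 and 27.6, PIWIL2 6.06 and 1.49 against 26.8 and 25.5, and DND1 8.81 and 10.4 against 27.9 and 51.5. The log2 fold changes of KLF4 and DND1 were 2.09 and 2.08, and fell to 1.13 and 1.95 without cjiPSC replicate 1 and to 1.97 and 1.57 without pre-ME + ActA replicate 2, and PIWIL2 (adjusted p = 0.345) and DND1 (adjusted p = 0.381) lost their calls with the covariate. NR5A2, a nuclear receptor of epiblast, fell from 187 and 144 to 37.2 and 31.8 (log2 fold change -2.26, adjusted p = 8.72e-05), with -1.52 under the covariate.

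Outside the lists, the largest changes with a gene symbol included GAD1 and ADAMTSL2 on the higher side and KLHDC7A and CACNG5 on the lower side. GAD1, which makes GABA, rose from 17.1 and 5.96 to 1434 and 1723 normalised counts (log2 fold change 6.86, SE 0.43, adjusted p = 1.33e-08) and had 1328 and 1632 without ActA. ADAMTSL2, a matrix protein that modulates TGFβ, rose from 5.51 and 2.98 to 414 and 589 (log2 fold change 6.69, SE 0.37, adjusted p = 4.12e-09), but had only 24.1 and 23.9 without ActA. The difference made by ActA was 0.09 for GAD1 (adjusted p = 0.932), whereas ADAMTSL2 was higher with ActA by 4.38 (adjusted p = 1.73e-07). On the other side, KLHDC7A fell from 434 and 536 to 3.28 and 3.18 (log2 fold change -7.17, SE 0.35, adjusted p = 6.03e-09). CACNG5, an auxiliary subunit of calcium channels and AMPA receptors, went from 191 and 281 to 0 and 1.59, at least 145-fold lower, and GALNT9, a glycosyltransferase, from 122 and 103 to 0.547 and 1.06, at least 69.0-fold lower. IGSF21, a synaptic adhesion protein, fell from 236 and 284 to 2.19 and 1.59, and TRIM55, a muscle ubiquitin ligase, from 109 and 177 to 2.19 and 1.59. The nicotinic receptor subunit CHRNA1, IRAG2 and CRACDL complete the 10 largest falls, with log2 fold changes of -5.60, -6.34 and -5.52, and CHRNA1 had an adjusted p of 0.0509 with the covariate. In each of these genes both pre-ME + ActA libraries lay far below both cjiPSC libraries.

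Among the called genes with the highest normalised counts were FN1, described above, and CRABP2 and PIM1 on the higher side, and SPP1, PTX3 and ADAM12 on the lower side. CRABP2, which binds retinoic acid, rose from 2089 and 2168 to 12119 and 12798 normalised counts (log2 fold change 2.56, adjusted p = 0.00321), and with the covariate it had 0.31 (adjusted p = 0.792). PIM1, a kinase of growth signalling, rose from 873 and 993 to 5440.4 and 5746 (log2 fold change 2.60, adjusted p = 1.33e-08) and had 1192 and 1159.8 without ActA. SPP1, the secreted phosphoprotein osteopontin, fell from 9797 and 11993 to 977 and 806 (log2 fold change -3.60, SE 0.21, adjusted p = 6.05e-09). PTX3, a secreted pattern recognition protein, fell from 7774 and 7874 to 773 and 825 (log2 fold change -3.28, adjusted p = 4.81e-08), and the metalloprotease ADAM12 from 8632 and 9795 to 1324 and 1376 (log2 fold change -2.76, adjusted p = 2.98e-07). In these genes the replicates of a group lay close together. ARHGAP29, a RhoA regulator, and PRXL2A, a redox protein, had log2 fold changes of -2.26 and -2.14, which were -1.93 and -1.96 with the covariate, and PRXL2A had -1.99 without pre-ME + ActA replicate 1. By level in the higher group, 36 of 417 up-regulated genes with a symbol had at least 1000 normalised counts and 52 had fewer than 10, and of 364 down-regulated ones 34 and 37.

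The share of reads outside genes averaged 11.99% ± 1.91 (SD, n = 2) over the cjiPSC libraries and 19.4% ± 0.121 (SD, n = 2) over those of pre-ME + ActA, a difference of 7.38 percentage points. An exact two-sided permutation test gave p = 0.333, the smallest value that 2 libraries against 2 allow. In pre-ME without ActA it was 20.04% and 20.6%, and over all 20 libraries it ranged from 10.6% to 23.2%. Genes that have only a LOC name, which the annotation gives to genes without an assigned symbol, were called higher more often than lower: of 2544 tested 284 (11.2%) were up-regulated and 35 (1.38%) down-regulated, beside 417 (3.15%) and 364 (2.75%) of 13251 genes with a symbol. They were low genes, with a median of 25.3 normalised counts in pre-ME + ActA against 52.1 for the up-regulated genes with a symbol, and 103 of the 284 had 3 counts or fewer in both cjiPSC libraries. By the classes of RefSeq, 92 of the 284 were protein-coding and 55 were long noncoding, and 116 had no match there.

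The cjiPSCs kept in cjPSCM give a view of such genes within a single condition, since their replicates differed in this share. Replicate 2, with the larger share, exceeded replicate 1 by more than 1 on the log2 scale in 229 of the 284 up-regulated LOC genes (80.6%), in 220 of the 417 up-regulated genes with a symbol (52.8%) and in 2125 of all 15797 genes tested (13.5%). Among down-regulated genes with a symbol it did so in 68 of 364 (18.7%). Named genes with such a gap included OLIG3, with 16.0 and 661 normalised counts in these 2 libraries, and CRABP2, with 195 and 2225. With the share as a covariate 263 genes were up-regulated and 372 down-regulated, of which 192 and 197 were also called without it. Genes with a LOC name then made up 42 of the up-regulated genes. When cjPSCM cjiPSC replicate 2 was left out as well, 421 genes were up-regulated and 294 down-regulated, and 136 of the former had a LOC name. AXIN2, SP5, NOTUM, MIXL1, HOXA9, CXCR4 and CDH1 were called in both of these fits, at log2 fold changes of 3.51, 5.25, 7.23, 5.87, 7.55, 3.36 and -6.39 in the first. FST and CRABP2 were called in the second fit and not in the first, at log2 fold changes of 3.27 and 2.33 in the second. Other named genes with this pattern included ARHGAP29, ESRP2, MEOX2, PRXL2A, TFAP2B and UTF1. CALHM5, DLX5, HEY1, KLF4, SERPINB2, SOX8, TRIB3 and ZIC4 showed the reverse, with calls kept in the first fit and lost in the second. The share and the condition moved together in the libraries compared, so what each contributes cannot be told apart there. Transcripts of the mitochondrial genome made up 0.0621% and 0.132% of gene reads in the cjiPSCs and 0.0609% and 0.0563% in pre-ME + ActA, and over the 20 libraries 0.268% to 0.350% of reads were ambiguous.

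**Figure D3:**
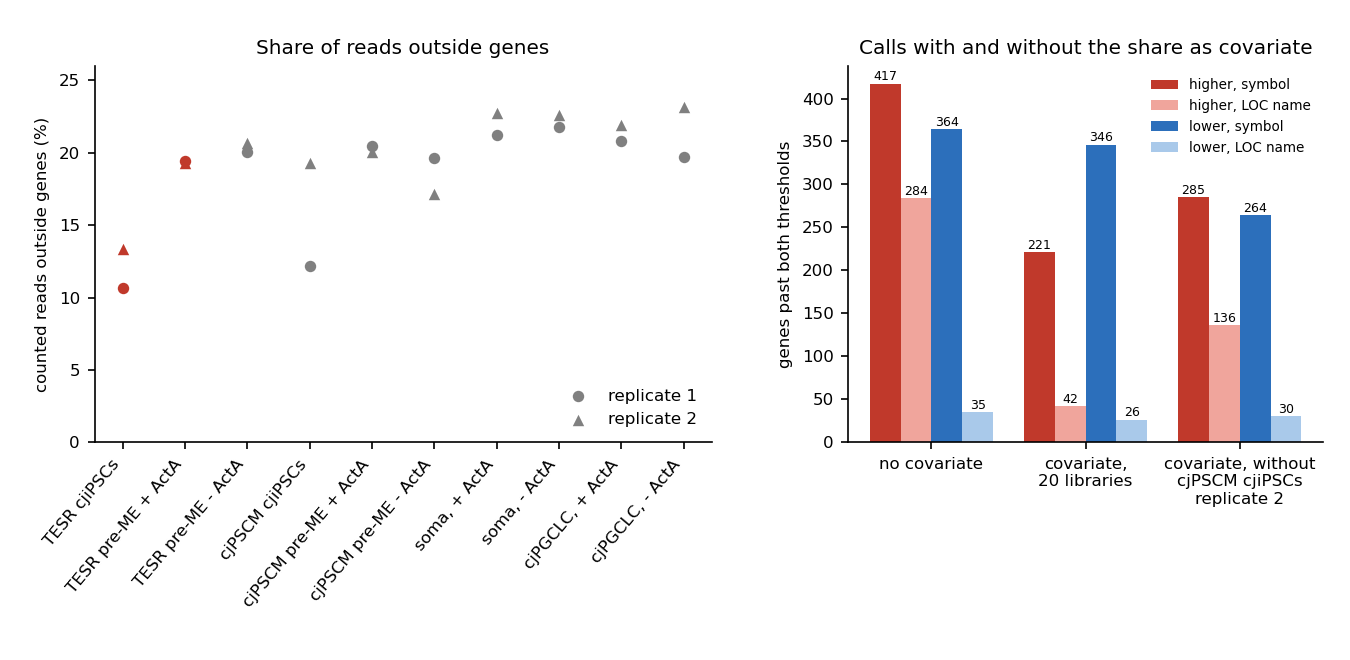
Left, the share of counted reads outside genes (%) in each of the 20 libraries, with the libraries compared here in red, circles for replicate 1 and triangles for replicate 2. Right, the number of genes past both thresholds without a covariate, with this share as a covariate, and with the covariate after cjPSCM cjiPSC replicate 2 was left out, where up-regulated LOC names went from 284 to 42 and to 136.

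To ask whether the medium of origin changed the response, the change was tested against that of cells kept in cjPSCM before the same pre-ME step with ActA, as an interaction in the same model. By the adjusted p the change was more positive in TESR for 505 genes (3.2%) and more negative for 474 (3%). These counts depended on single libraries: they were 196 and 210 without pre-ME + ActA replicate 1, 305 and 261 without its replicate 2, 1042 and 1012 without TESR cjiPSC replicate 1, 1158 and 955 without cjPSCM cjiPSC replicate 1, and 1032 and 1074 without cjPSCM cjiPSC replicate 2. For the comparison in cjPSCM on its own, 224 genes (1.42%) were up-regulated and 259 (1.64%) down-regulated, 483 (3.06%) in all. Of the groups in the interaction only TESR pre-ME + ActA has sample numbers apart. A difference in preparation could not be told apart here either.

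The streak, WNT and HOX lists had medians of 2.10, 1.20 and 1.50 in cjPSCM, beside 2.34, 1.76 and 2.89 in TESR, and cholesterol genes had -0.79 beside -0.92. AXIN2 was among the key genes that differed. It had 672 and 808 normalised counts already in the cjPSCM cjiPSCs and 2316 and 2149 in their pre-ME + ActA (interaction 2.09, adjusted p = 2.81e-05). MIXL1 reached 19.2 and 11.2 in cjPSCM pre-ME + ActA from 10.4 and 5.93, so its change was larger in TESR by 3.77 (adjusted p = 0.00448). GATA6 went the other way in cjPSCM, from 2821 and 2232 to 459 and 349.7 (interaction 4.19, adjusted p = 2.81e-05). EOMES, which did not pass in TESR, rose in cjPSCM from 4.71 and 1.48 to 39.2 and 22.5 (log2 fold change 3.19, adjusted p = 0.00591). Its interaction was -3.10 (adjusted p = 0.0332). Further key genes that passed included CXCR4, CCN1, ISL1, HAND1, TRIB3 and CCND1, with a more positive change in TESR. DUSP6, SPRY4 and SOX3 passed with a more negative one. CDX2 rose more in cjPSCM, from 0 and 1.48 to 197 and 139 (interaction adjusted p = 0.0113). With counts under 3 set to 3 in each library the difference of the log2 fold changes was -2.07, which is a bound, since both cjPSCM cjiPSC libraries had 3 counts or fewer. The interactions of SP5 and NODAL did not pass (adjusted p = 0.084 and 0.563).

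CDH1 fell in the TESR cells, and its change differed from that in cjPSCM. There it had 2.83 and 4.45 normalised counts already in the cjiPSCs and 5.84 and 1.40 in pre-ME + ActA (adjusted p = 0.826), which is close to 3 counts per library. The difference of the log2 fold changes was -6.05 with counts under 3 set to 3 (interaction adjusted p = 0.000453). NGFR, KLHDC7A and CHRNA1 showed the same pattern, low in all 4 cjPSCM libraries, with at most 20.8 normalised counts. CXCL14, a chemokine, fell from 52.9 and 174 to 9.30 and 4.78 in TESR and rose from 8.48 and 7.41 to 37.5 and 37.9 in cjPSCM by a log2 fold change of 2.23 (adjusted p = 0.0342). In the other direction RAB17, a small GTPase of epithelial transport, rose from 2.20 and 4.47 to 58.6 and 22.8 in TESR and fell from 134 and 87.5 to 18.4 and 19.7 in cjPSCM (difference 6.15 on the same scale, interaction adjusted p = 0.000138). SERPINB2, a protease inhibitor, rose from 3.86 and 4.47 to 73.3 and 45.6 and fell from 32.0 and 32.6 to 8.34 and 11.2 (difference 5.56, interaction adjusted p = 0.000389). MMP13, a collagenase, had 15.4 and 10.4 against 14.2 and 7.96 in TESR (adjusted p = 0.64), and fell from 158 and 189.7 to 4.17 and 7.02 in cjPSCM.

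**Figure D4:**
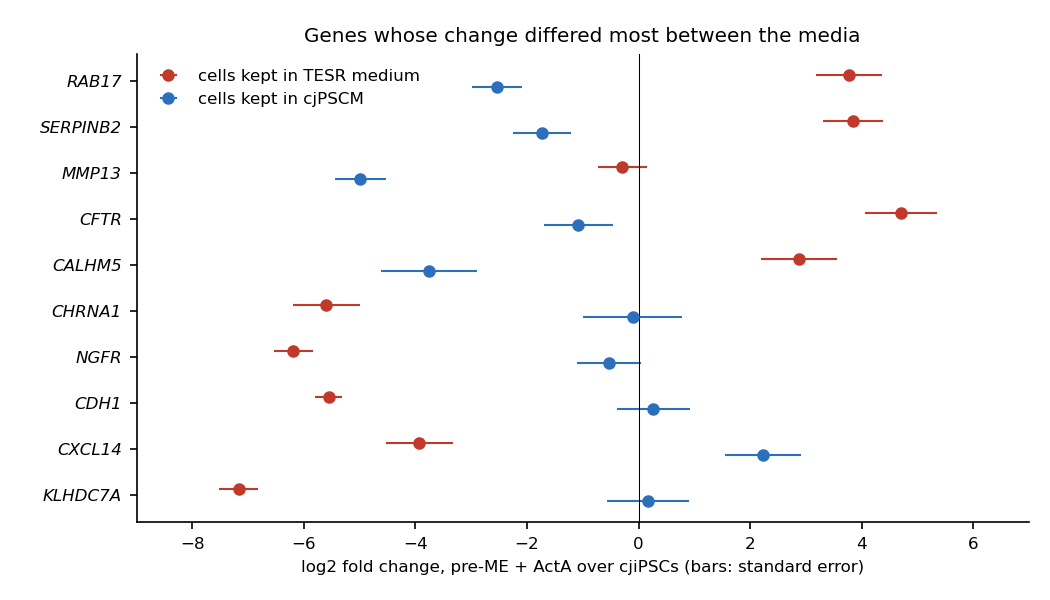
Log2 fold change of pre-ME + ActA over cjiPSCs with its standard error (bars) in cells kept in TESR medium (red) and in cjPSCM (blue), for the 5 genes with a symbol whose change differed most between the media in each direction. RAB17 and SERPINB2 rose in TESR and fell in cjPSCM, and CDH1, NGFR, KLHDC7A and CHRNA1 fell in TESR and have points near 0 in cjPSCM, where they were low. For CALHM5, CFTR, KLHDC7A and CDH1 a group had 3 counts or fewer in both libraries, so their points are fitted values and no bounds.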

How the data were processed

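Poly(A) RNA (40 ng per library) of the marmoset line was sequenced in 20 libraries. Per the labels and the study's methods, the authors checked reads with FastQC 0.11.8, mapped them with STAR 2.7.0a to calJac4 and counted them with HTSeq-count 0.11. The deposited values are the raw count per gene and library and a normalised signal, obtained by the authors through division by a size factor from DESeq2. The labels name a directional kit, the methods a kit without that word, and the strand setting and annotation release are not given in the sources used here. Reads of overlapping, antisense or near-identical genes may therefore be split or lost. Reads outside genes and ambiguous reads (0.268% to 0.350% of all counted reads over the 20 libraries) were kept out of library sizes and tests. Conditions were taken from sample titles and labels, which also gave the columns of TESR pre-ME.

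For the tests, edgeR 4.0.16 (R 4.3.3) was run on the raw counts with TMM scaling, filterByExpr by condition and the quasi-likelihood F-test, using 1 coefficient for each condition. The filter left 15797 of 25102 genes. The model had 10 residual degrees of freedom and its common dispersion was 0.0203. Benjamini-Hochberg adjustment ran over all genes tested in a comparison. Folds against a group with 3 counts or fewer in each library are lower bounds, computed against 3 counts per library. Figures used Python 3.11.15 and matplotlib 3.10.9. The scripts were tested on simulated counts first.

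The members, the gene lists and the rule for named genes were chosen with earlier results of these data known. The rule took 10 genes each way by fold past both thresholds (symbol, counts under 3 set to 3, replicates not overlapping), 5 each way by mean normalised count, key genes of each list with its 3 largest calls each way, and 5 each way by the difference between media. Outside this rule, TCF7, DKK1, ZNRF3, RNF43, SFRP1, LGR5, SMAD7, FOXH1, EVX1, CDX2, NKX1-2, FGF3, FOSL2, MSGN1, LIN28A, SALL4, DNMT3B, TDGF1, EPCAM, SOX10, CGA, TFAP2C, PRDM1, NANOS3 and DDX4 were chosen for their roles after their values were seen. Names were matched to a RefSeq list of calJac240_pri (21267 found), another build than that of the counts, so no coordinates are given. Histone genes (3 of 40 listed names found) and nuclear long noncoding RNAs (0 of 20) were too few to be read. A few genes of the lists, though counted in them, are not reported here by name.

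Alternatives were DESeq2 1.42.0 on 20 or 4 libraries, edgeR on 4 libraries, and scaling by DESeq2's size factors or by total counts. Others were no low-count filter, a mean of at least 1 CPM, the replicate block and the share of reads outside genes as a covariate. The last were counts thinned to the shallowest of the 4 libraries, glmTreat against a log2 fold change of 2, and each of the 4 libraries left out in turn. Leaving out a cjPSCM cjiPSC library, alone or with the covariate, was chosen after seeing the data.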

Additional observations from a re-analysis of the deposited data

Results flagged for a closer look

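The change from cjiPSCs to pre-ME + ActA differed between cells kept in TESR medium and in cjPSCM by the interaction test of edgeR (adjusted p), with a more positive change in TESR for 505 genes and a more negative one for 474. Among genes with a symbol, and with counts under 3 set to 3 in each library, the difference of the log2 fold changes was 6.15 for RAB17, 5.56 for SERPINB2 and 4.73 for MMP13. It was at least 4.48 for the chloride channel gene CFTR and at least 4.35 for CALHM5, a subunit of a channel family, since a group of each had 3 counts or fewer in both libraries. On the other side it was -7.29 for KLHDC7A, -6.25 for CXCL14, -6.05 for CDH1, -5.68 for NGFR and -5.19 for CHRNA1, and the cjPSCM libraries of KLHDC7A, CDH1 and CHRNA1 held at most 7 counts of the gene. In CALHM5 the normalised counts went from 2.20 and 1.49 to 14.8 and 15.9 in TESR and from 20.7 and 8.89 to 1.67 and 0 in cjPSCM. In CFTR they went from 1.65 and 0 to 31.7 and 35.6 in TESR, at least 11.1-fold, and from 12.2 and 10.4 to 4.17 and 7.02 in cjPSCM. The 2 cjiPSC libraries of cjPSCM differed in the share of reads outside genes (12.2% and 19.3%), whose part in these differences was not tested.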

How the results depend on the processing

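The counts of up- and down-regulated genes (701 and 399) stayed within 1.5 times under each alternative but 3: with the share of reads outside genes as a covariate 263 were up-regulated, with that covariate and cjPSCM cjiPSC replicate 2 left out 421, and with glmTreat 100 and 85 were called. The covariate also moved the share of calls that were up-regulated from 63.7% to 41.4%, and to 58.9% without that library. When 1 library was left out, 596 to 791 genes were up-regulated and 397 to 457 down-regulated. Total counts in place of TMM gave 753 and 362 and shifted the median of all genes from -0.02 to 0.09. DESeq2 gave 652 and 379. The interaction counts (505 and 474) became 1011 and 733 with no filter on low counts, 877 and 836 with the covariate, 1097 and 1105 with the covariate and that library left out, and 196 to 1158 and 210 to 1074 when 1 library was left out. Against pre-ME without ActA 183 to 254 genes were higher and 56 to 105 lower when 1 library was left out, beside 226 and 90. The difference in reads outside genes was 6.03 to 8.73 percentage points. With the covariate and cjPSCM cjiPSC replicate 2 left out, NODAL had a log2 fold change of -2.36 (adjusted p = 0.728) and FGF17 of -1.19 (adjusted p = 0.952), the opposite sign of the values above. The cause of these shifts was not tested.

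The labels do not tie libraries with the same replicate number to one another, and the numbers were not taken as pairs. Over genes, deviations of same-numbered libraries correlated at -0.0404 between TESR pre-ME + ActA and cjiPSCs, 0.222 between TESR pre-ME with and without ActA, and -0.135 between the cjPSCM groups. Under a replicate block, 697 genes were up-regulated and 403 down-regulated (691 and 394 of them also called without it), the interaction counts were 494 and 455, those against pre-ME without ActA were 231 and 90, and of 124 named genes only FOXC2 lost its call. Depth limits the low genes: 205 up-regulated and 64 down-regulated genes had 3 counts or fewer in both libraries of the lower group, and with counts thinned to the shallowest library 590 and 371 were called.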
